A study of Arabidopsis thaliana with 15 samples.

Results

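The genes described here gave the brightest signal of the annotated nuclear genes in wild type rosette leaves. Of 13217 nuclear genes with an annotated probe set of their own, the 200 with the highest mean over the 3 wild type arrays were taken, with 1 probe set per gene. Genes whose mean over both double knockouts lay 0.5 or more from wild type were then left out, which removed 30 genes, 24 of them lower and 6 higher in the double knockouts, and left 170 members. The members were thus chosen by their wild type level and by the difference of both double knockouts from wild type, and both are given below only as descriptions.

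RNA came from rosette leaves of Arabidopsis thaliana, accession Columbia, at 4 weeks on soil with 8 h of light and 16 h of dark, and each of 15 samples was hybridized to its own Affymetrix array. There were 5 genotypes of 3 biological replicates: wild type, the T-DNA knockouts nhx5-2 (a GABI line) and nhx6-2 (a SALK line), the double knockout nhx5-2/nhx6-2 with those same alleles, and a second double knockout, nhx5-1/nhx6-1, with a WiscDsLox insertion in NHX5 and another SALK insertion in NHX6. NHX5 and NHX6 encode antiporters of endosomal membranes that exchange potassium or sodium for protons. Each allele is 1 insertion line, and neither gene had an annotated probe set, so the genotypes rest on the labels.

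A green leaf devotes much of its nuclear messenger RNA to the chloroplast. The nucleus encodes the light-harvesting antenna, many small subunits of both photosystems, part of the ATP synthase and nearly all Calvin cycle enzymes, which are made in the cytosol and imported. Photorespiration, chlorophyll synthesis and protein synthesis are further large users of leaf transcripts.

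Values are in the deposited unit, a log-like score of unstated base. As a measure of its size, hybridization spike-ins differed by 0.68 ± 0.03 units for each doubling of their nominal concentration (SD over 15 arrays). Each probe set has its own brightness, so the order of the genes is an order of signal and not of molecules. In whole leaves, fewer cells of a type and less RNA per cell cannot be told apart. The annotation limits the picture further: 600 probe sets were at or above the level of the gene ranked 200, of which 360 were not listed with any gene, 20 had several genes and 20 had a gene that was not nuclear or not matched. Of the 20 highest probe sets, 18 were unlisted. The small Rubisco subunit RBCS1A, the antenna gene LHCB1.3 and the carbonic anhydrase gene CA1, the mesophyll markers chosen to check the tissue, were among the genes without a listed probe set and are not analysed here. Of 19 markers of other cell types, 4 were listed, and the root gene PYK10 (−0.71) and the meristem gene CLV3 (−0.71) lay in wild type near the no-target control level (−0.73 over 15 arrays). The guard cell gene FAMA (−0.26) and the trichome gene TRY (0.62) lay above it.

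Of the 170 members, 44 had a gene name in the reference annotation, and 126 had only a locus number and are given no function here. The named members were led by photosynthesis: RCA, which encodes Rubisco activase, had the highest wild type mean of the members at 5.42, followed by LHCB4.1 (5.11), PSAN (4.97), LHCB4.2 (4.95) and PSAE-1 (4.87). The further members among the 15 highest were AT1G09310 (4.84), PSBY (4.82), AT2G26500 (4.72), the geranylgeranyl reductase gene AT1G74470 (4.63), AT2G25510 (4.57), ATPC1 (4.57), CURT1A (4.53), HPR (4.49), ECS1 (4.47) and PSBW (4.43). Chloroplast proteins thus account for most of the named genes in this list. The hybridization spike-in cre, at a nominal 100 pM, read 4.83 ± 0.27 (SD over 15 arrays), so the leading members sat at the brightness of the strongest control. Of all members, 20 had a wild type mean of 4 units or more, 47 lay between 3 and 4, and 103 lay below 3.

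The level threshold fell within a dense run of genes. The members or genes just inside it were AT5G03880 (2.46), AT3G47370 (2.45, later left out) and PMEAMT (2.45), and just outside it were AT4G26230 (2.44), AT3G51510 (2.44) and AT1G64680 (2.43). The leave-out threshold had AT3G07110 (−0.50), CaS (−0.49) and AT4G17390 (−0.49) just inside, and HCT (−0.52), AT5G56710 (−0.53) and AT2G41090 (−0.53) just outside. Among the genes left out, AT1G29660 (−1.34), AT4G16980 (−1.30), AT3G09440 (−1.21), AT5G48490 (−1.17) and AT2G10940 (−1.10) lay furthest below wild type, and the peroxidase gene PRXR1 (0.63), AT4G23670 (0.62), AT1G67870 (0.62), ARD4 (0.57) and AT1G13930 (0.55) furthest above.

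The members were spread over the chromosomes much like all annotated nuclear genes. Chromosome 1 held 27.7% of members and 25.8% of genes, and chromosome 4 held 13.5% and 14.6%. A single pair of members, AT2G27710 and AT2G27720, were direct neighbours in the reference annotation. Families were represented to different extents. Both listed LIL3 genes, both listed PSA genes and all 3 listed PSB genes were members. LHCB4.3, the third gene for the minor antenna protein CP29, was not: its wild type mean of 1.27 ranked it 791. Of the listed CURT1 genes, CURT1A and CURT1C were members and AT4G38100 (1.41, rank 675) was not.

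The spread of the members is given as a description, since the rule had limited the distance of the double knockouts from wild type. The SD within genotypes had a median of 0.15 over the members (0.09 to 0.86), against 0.16 for the 400 other probe sets of that brightness and 0.09 for all 22746. The 5 genotype means of a member spanned a median of 0.39 units (0.13 to 1.55), and for 131 of 170 members (77.1%) they spanned less than 0.5. Among the other bright probe sets, from which no gene had been left out, the share was 66.8% and the median span 0.42. Bright probe sets of either kind varied more in absolute units than the whole table, whose median span was 0.14.

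On some arrays the members were shifted together. The median member on the wild type arrays lay at 0.04, −0.08 and 0.03 from the wild type mean. On nhx5-2 replicate 1 it lay at −0.30, with 165 of 170 members below the wild type mean, and on replicates 2 and 3 at −0.06 and −0.05. The nhx6-2 arrays gave −0.10, 0.00 and 0.07, and those of nhx5-2/nhx6-2 gave −0.08, −0.13 and −0.02. The nhx5-1/nhx6-1 arrays gave −0.20, −0.24 and −0.45, with 137, 142 and 160 members below. All 3 nhx5-1/nhx6-1 arrays were thus below every wild type array, while the nhx5-2 arrays were low mainly through replicate 1.

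**Figure D1:**
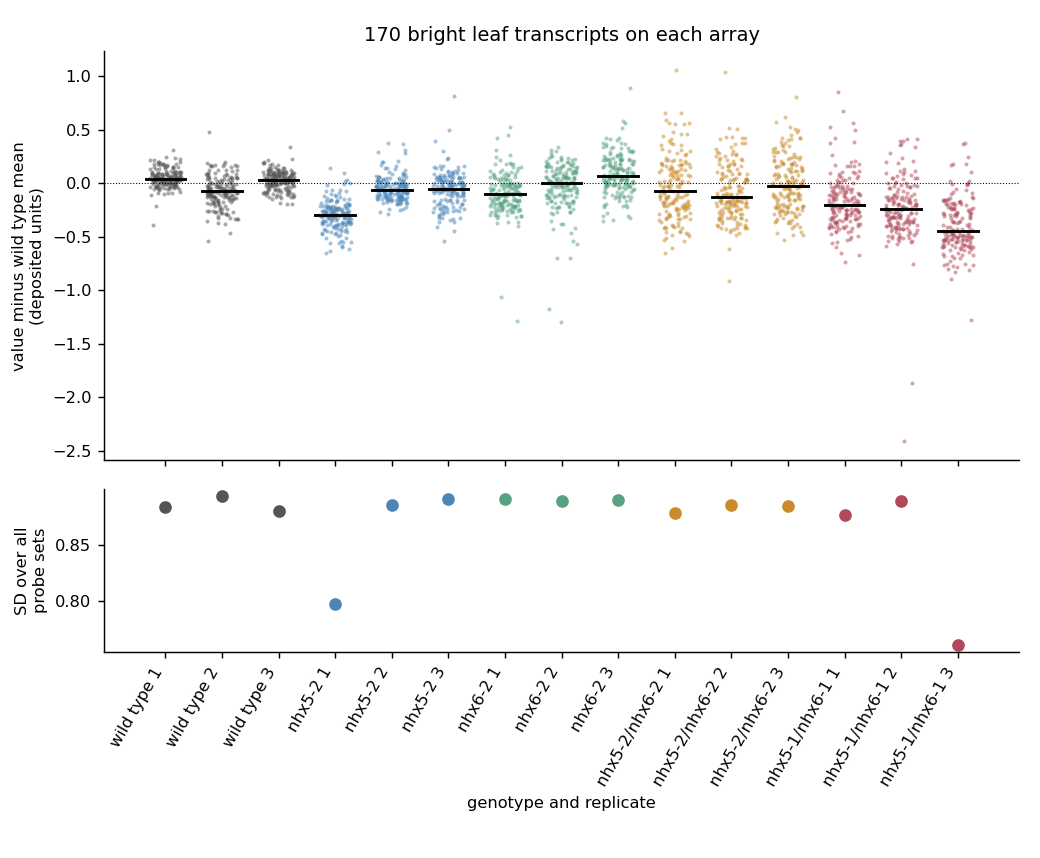
Upper panel, the value of each of the 170 members on each array minus its wild type mean, in deposited units, with a black bar at the median; lower panel, the SD of all 22746 probe sets on that array. The medians are lowest on nhx5-2 replicate 1 (−0.30) and nhx5-1/nhx6-1 replicate 3 (−0.45), the arrays with the lowest SD (0.80 and 0.76).

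Some properties of the whole arrays moved with these shifts. The median differences under other scalings, without the 2 lowest arrays and with a covariate for RNA quality are given further on. The 2 lowest arrays also had the lowest SD over all probe sets, 0.80 and 0.76, against 0.88 to 0.89 on the other 13. The 400 other bright probe sets moved alike, with medians of −0.31 on nhx5-2 replicate 1 and of −0.16, −0.26 and −0.45 on the nhx5-1/nhx6-1 arrays. The 3′ minus 5′ signal of the actin and GAPDH control probe sets, which is higher in degraded RNA, stood at 1.86 ± 0.10 for wild type (SD, n = 3 for each genotype). For nhx5-2 it stood at 1.51 ± 0.06, for nhx6-2 at 1.61 ± 0.07, for nhx5-2/nhx6-2 at 1.98 ± 0.20 and for nhx5-1/nhx6-1 at 2.34 ± 0.06. It did not follow the shift on both lowest arrays, with 1.49 on nhx5-2 replicate 1 and 2.40 on nhx5-1/nhx6-1 replicate 3. For 100 of 170 members the lowest of the 15 values was on nhx5-1/nhx6-1 replicate 3, and for 39 on nhx5-2 replicate 1. The highest value was most often on nhx6-2 replicate 2 (37 members), nhx6-2 replicate 3 (33) or nhx5-2/nhx6-2 replicate 3 (26).

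The 20 brightest members had their highest medians on the arrays with the highest signal of the strongest spike-in. Wild type replicates 1 and 3 and nhx6-2 replicate 3 had the highest cre signal (5.33, 5.25 and 5.33), and the brightest members there lay at a median of 0.18, 0.12 and 0.22 above their wild type mean. On wild type replicate 2 cre read 4.58 and the median was −0.30, although this is a control array. At like cre signals the medians also differed: at 4.62 the nhx5-1/nhx6-1 replicate 2 array had −0.37, and at 4.63 the nhx5-2/nhx6-2 replicate 2 array had −0.05. The 103 members below 3 units lay at 0.03, −0.03 and 0.00 on the 3 wild type arrays, and lowest at −0.27 on nhx5-2 replicate 1 and −0.45 on nhx5-1/nhx6-1 replicate 3. Whether the spike-in and the brightest transcripts share a cause was not tested.

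RCA, whose product keeps Rubisco active, read 5.67, 4.96 and 5.65 in wild type. It read 4.97, 5.30 and 5.10 in nhx5-2, 5.19, 5.32 and 5.71 in nhx6-2, 5.64, 5.23 and 5.37 in nhx5-2/nhx6-2, and 5.30, 4.99 and 5.06 in nhx5-1/nhx6-1. Every knockout overlapped wild type, and wild type replicate 2 was as low as the lowest knockout arrays. For nhx6-2 the overlap did not rest on that array, since nhx6-2 replicate 3 (5.71) lay above all wild type values. The Calvin cycle genes PRK, for phosphoribulokinase, and SBPASE, for sedoheptulose bisphosphatase, had the same low wild type array. PRK read 4.54, 4.10 and 4.47 in wild type and 4.15, 4.01 and 3.83 in nhx5-1/nhx6-1. SBPASE read 4.48, 3.97 and 4.45, and 4.06, 3.89 and 3.77. No comparison called any of these 3 genes at an adjusted p below 0.05 (limma, Benjamini-Hochberg over all probe sets).

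The minor antenna genes LHCB4.1 and LHCB4.2 encode forms of CP29, a chlorophyll protein that links the outer antenna to photosystem II. LHCB4.1 read 5.34, 4.74 and 5.26 in wild type, 4.47, 4.95 and 4.70 in nhx5-2, 4.91, 5.10 and 5.48 in nhx6-2, 5.15, 5.06 and 5.23 in nhx5-2/nhx6-2, and 5.02, 4.68 and 4.79 in nhx5-1/nhx6-1. Its range of 1.00 units over 15 arrays was wider than the 0.64 of LHCB4.2. The genotype means lay between 4.71 and 5.16 for LHCB4.1 and between 4.72 and 5.12 for LHCB4.2, each lowest in nhx5-2. Neither was called in any comparison.

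The 5 photosystem members are PSAN, on the lumen side of photosystem I, PSAE-1, on its stromal side, PSBY and PSBW, small photosystem II proteins, and PSB27, which serves photosystem II assembly. PSAN read 5.19, 4.69 and 5.04 in wild type, 4.39, 4.82 and 4.61 in nhx5-2, 4.76, 4.85 and 5.39 in nhx6-2, 5.03, 4.86 and 5.06 in nhx5-2/nhx6-2, and 4.83, 4.46 and 4.56 in nhx5-1/nhx6-1. None of the 5 was called in any of the 6 comparisons, and in every knockout each stayed within 0.42 units of wild type or of the other double knockout. Their median difference from wild type was −0.25 in nhx5-2, 0.04 in nhx6-2, 0.03 in nhx5-2/nhx6-2 and −0.22 in nhx5-1/nhx6-1, comparisons that share their wild type arrays. With all arrays scaled to the same SD these became −0.10, 0.02, 0.05 and 0.01, so the sign for nhx5-1/nhx6-1 turned.

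**Figure D2:**
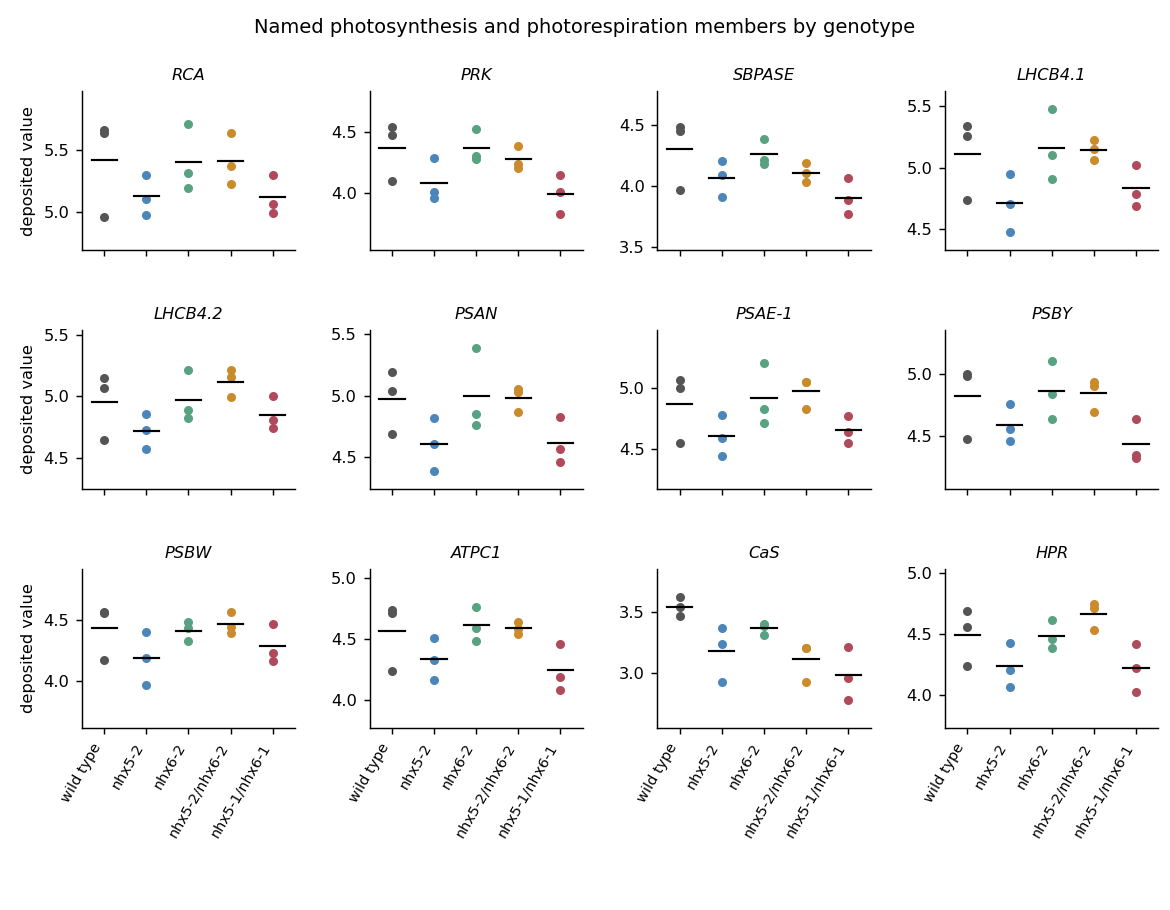
Deposited value of 12 named members on each array by genotype (points, 3 per genotype; black bar, mean), each panel spanning 1.3 units. For RCA the wild type arrays themselves lie between 4.96 and 5.67, and for CaS the wild type values (3.46 to 3.62) lie above all knockout values.

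A further 6 members act in or around the thylakoid membrane. ATPC1, for the regulatory gamma subunit of the chloroplast ATP synthase, read 4.72, 4.24 and 4.74 in wild type and 4.46, 4.20 and 4.09 in nhx5-1/nhx6-1, again overlapping. CURT1A and CURT1C encode proteins that bend the margins of the grana, and CURT1C was among the steadier named members, with genotype means that spanned 0.23 units. CaS, for a thylakoid protein of calcium signalling, read 3.54, 3.46 and 3.62 in wild type. It read 2.93, 3.37 and 3.24 in nhx5-2, 3.39, 3.31 and 3.40 in nhx6-2, 3.21, 2.92 and 3.21 in nhx5-2/nhx6-2, and 3.21, 2.96 and 2.78 in nhx5-1/nhx6-1. All 12 knockout values were below the 3 wild type values. Against wild type the single knockouts differed by −0.36 ± 0.12 (nhx5-2) and −0.18 ± 0.12 (nhx6-2), which limma did not call (adjusted p = 0.603 and 1). TROL, which anchors ferredoxin-NADP reductase to the membrane, had genotype means that spanned 0.35 units. NdhS, a ferredoxin-binding subunit of the NDH complex, had its highest values in nhx5-2/nhx6-2 at 2.82, 2.89 and 2.88, above 2.57, 2.61 and 2.39 in wild type.

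Chlorophyll synthesis had 4 named members: the geranylgeranyl reductase gene, whose product makes the phytyl tail, CHLM, for magnesium protoporphyrin methyltransferase, and LIL3:1 and LIL3:2, light-harvesting-like proteins that hold the reductase at the membrane. LIL3:1 read 2.90, 2.73 and 2.96 in wild type, 2.60, 2.84 and 2.80 in nhx5-2 and 2.85, 3.01 and 2.67 in nhx6-2. Its values were 2.26, 2.48 and 2.46 in nhx5-2/nhx6-2 and 2.57, 2.55 and 2.17 in nhx5-1/nhx6-1. All 6 double knockout values were thus below all 9 others. LIL3:2 read 2.86, 2.79 and 2.85 in wild type and 2.63, 2.57 and 2.60 in nhx5-2/nhx6-2, with 2.54, 2.54 and 2.31 in nhx5-1/nhx6-1. The median of the 4 genes lay at −0.21 (nhx5-2/nhx6-2) and −0.38 (nhx5-1/nhx6-1), and with arrays scaled to the same SD it was −0.20 in each. In the single knockouts no gene of the 4 was called, and their medians were −0.13 (nhx5-2) and −0.02 (nhx6-2).

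Photorespiration, which recovers carbon after Rubisco fixes oxygen, was represented by HPR, the peroxisomal hydroxypyruvate reductase, and LrgB, a plastid glycolate and glycerate transporter. HPR read 4.68, 4.24 and 4.56 in wild type, 4.71, 4.54 and 4.74 in nhx5-2/nhx6-2 and 4.42, 4.22 and 4.02 in nhx5-1/nhx6-1. The double knockouts did not overlap, and their difference of −0.44 ± 0.13 was not called (adjusted p = 0.146). LrgB had genotype means that spanned 0.35 units.

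Carbon and methyl metabolism outside the Calvin cycle had 7 named members. GAPC2, for a cytosolic glyceraldehyde-3-phosphate dehydrogenase of glycolysis, read 4.33, 3.93 and 4.32 in wild type, 4.13, 4.34 and 4.14 in nhx5-2, 4.38, 4.33 and 4.42 in nhx6-2, 4.57, 4.37 and 4.31 in nhx5-2/nhx6-2, and 3.87, 3.95 and 3.81 in nhx5-1/nhx6-1. The 3 values of nhx5-1/nhx6-1 were below those of every other genotype except wild type replicate 2. SAMDC, for S-adenosylmethionine decarboxylase of polyamine synthesis, read 4.27, 3.71 and 4.28 in wild type, 3.63, 3.65 and 3.61 in nhx5-2/nhx6-2 and 3.73, 3.62 and 3.41 in nhx5-1/nhx6-1. GME, an epimerase on the path to ascorbate, read 2.56, 2.48 and 2.53 in wild type, 2.08, 2.27 and 2.36 in nhx5-2, 2.22, 2.15 and 2.22 in nhx6-2, 2.29, 2.30 and 2.25 in nhx5-2/nhx6-2, and 2.27, 2.13 and 1.75 in nhx5-1/nhx6-1. All 12 knockout values of GME were below its wild type values. The steadier members here were the chloroplast malate dehydrogenase gene NADP-MDH (genotype means spanning 0.23), the choline synthesis gene PMEAMT (0.24) and ALDH11A3, for a non-phosphorylating glyceraldehyde-3-phosphate dehydrogenase (0.30). TPI, for a triose phosphate isomerase, spanned 0.38.

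The redox group held the thioredoxin genes ATHM2 and THX, the glutathione transferase genes GSTU20 and GSTL3, and AOR, whose product removes reactive carbonyls. AOR was steady, with genotype means that spanned 0.25. GSTU20 was not: it read 2.40, 3.26 and 2.69 in wild type and 3.21, 2.51 and 3.67 in nhx6-2, so its replicates differed more than its genotypes, whose means spanned 0.51. GSTL3 read 2.49, 2.59 and 2.44 in wild type, 2.88, 2.93 and 3.03 in nhx5-2/nhx6-2 and 2.60, 2.70 and 2.27 in nhx5-1/nhx6-1. The 2 named members of protein synthesis, FUG1, a plastid initiation factor, and PGY1, a cytosolic ribosomal protein, had genotype means that spanned 0.31 and 0.46.

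Names tied to stress or defence were carried by 4 members. HIRD11, a dehydrin, read 3.04, 3.24 and 2.95 in wild type, 2.81, 3.11 and 2.89 in nhx5-2, 3.19, 3.11 and 3.43 in nhx6-2, 3.73, 3.49 and 3.70 in nhx5-2/nhx6-2, and 3.60, 3.44 and 3.18 in nhx5-1/nhx6-1. DI19, for a zinc finger protein named for its induction by drought, read 2.70, 2.84 and 2.48 in wild type, 3.33, 3.09 and 3.10 in nhx5-2/nhx6-2 and 2.79, 3.03 and 2.91 in nhx5-1/nhx6-1. In nhx5-2/nhx6-2 both genes were above every wild type and single knockout array, and in nhx5-1/nhx6-1 both overlapped wild type. ECS1 had genotype means that spanned 0.53 and AILP1 0.37. Among the remaining named members, APA1, a vacuolar aspartic protease gene, read 2.96, 2.76 and 2.92 in wild type and 3.32, 3.31 and 3.33 in nhx5-2/nhx6-2. The ubiquitin-conjugating enzyme gene UBC28 spanned 0.55 between genotype means, the glucosyltransferase gene UGT88A1 0.19 and NPF6.4, of the nitrate transporter family, 0.19.

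The 5 steadiest members over the 15 arrays had locus numbers only. AT2G27720 ranged over 0.38 units, from 2.27 to 2.65, AT3G24830 over 0.42, AT4G27090 over 0.44, AT1G52300 over 0.44 and AT5G27700 over 0.45. Their SDs within genotypes were 0.11 to 0.13, not far from the members' median.

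The 5 least steady members were AT5G03350, AT3G22240, AT1G66100, GSTU20 and AT2G25510. AT5G03350 read 2.30, 2.39 and 2.85 in wild type, 2.50, 2.62 and 3.33 in nhx5-2, 1.22, 1.34 and 2.94 in nhx6-2, 3.57, 3.56 and 2.37 in nhx5-2/nhx6-2, and 1.85, 0.10 and 2.89 in nhx5-1/nhx6-1. AT3G22240 read 2.72, 2.37 and 2.74 in wild type, 2.37, 2.53 and 2.91 in nhx5-2, 1.55, 1.32 and 2.80 in nhx6-2, 3.17, 3.04 and 2.67 in nhx5-2/nhx6-2, and 1.87, 0.74 and 2.98 in nhx5-1/nhx6-1. Both genes were low on the same 4 arrays, nhx6-2 replicates 1 and 2 and nhx5-1/nhx6-1 replicates 1 and 2, while the third replicate of each genotype was near wild type. AT1G66100 differed most between replicates of nhx5-1/nhx6-1, at 4.28, 2.89 and 2.15, against 3.32 to 3.49 in wild type. AT2G25510, among the brightest members, ranged from 4.00 on nhx6-2 replicate 2 to 5.14 on nhx5-2/nhx6-2 replicate 1. As deposited, limma called none of these 5 genes in any comparison.

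**Figure D3:**
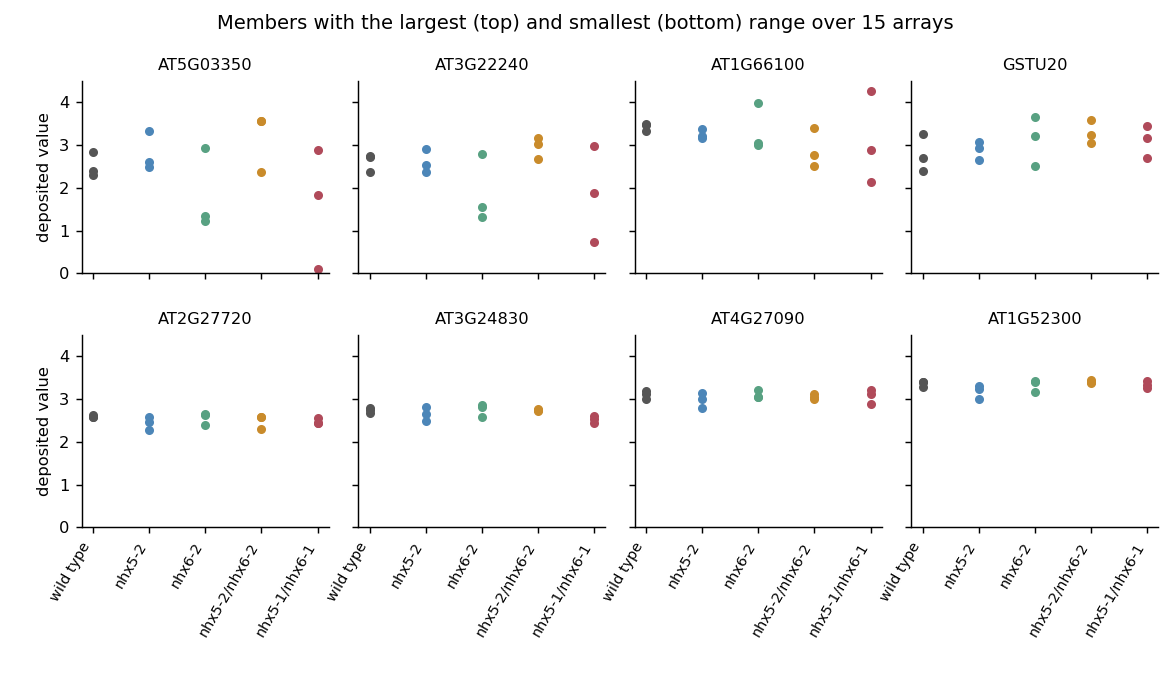
Deposited values by genotype, 3 arrays each, of the 4 members with the largest range over 15 arrays (top row) and the 4 with the smallest (bottom row), on a common axis. AT5G03350 runs from 0.10 to 3.57 with replicates of nhx6-2 and nhx5-1/nhx6-1 far apart, whereas AT2G27720 stays between 2.27 and 2.65.

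The comparison of nhx5-2 with nhx6-2 used no array that had chosen the members. The median member was 0.13 units lower in nhx5-2, at −0.126, and 157 of 170 members had a difference below 0. Limma called none of the 170. Of all 22746 probe sets 3 were called, a background of 0.0132%. The arrays did not overlap for 15 members (8.82%), close to the background share of 8%. The largest differences were −0.45 ± 0.17 for LHCB4.1 and −0.39 ± 0.17 for PSAN among those below 0, and 0.98 ± 0.60 for AT5G03350 among those above. The size of the shift varied with the arrays used and with the scaling. Without nhx5-2 replicate 1 the median was −0.06 with 124 of 170 members below 0, and without nhx6-2 replicate 3 it was −0.10. Leaving out both nhx5-2 replicate 1 and nhx5-1/nhx6-1 replicate 3 also gave −0.06. Scaling all arrays to the same SD gave −0.01, and quantile normalization gave 0.01. The cause of the shift was not tested.

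Against wild type, whose arrays had taken part in choosing the members, the single knockouts gave no called member either. In nhx5-2 the median difference was −0.13 with 157 members below 0, and limma called 15 probe sets in the whole table (0.0659%). The smallest p belonged to AT5G24165, which read 2.57, 2.66 and 2.50 in wild type and 2.19, 2.31 and 2.23 in nhx5-2 (−0.33 ± 0.08, adjusted p = 0.344). In nhx6-2 the median was 0.00 with 84 members below 0, and limma called 66 probe sets in all (0.29%). The smallest p belonged to AT1G78020, which read 2.85, 2.83 and 2.67 in wild type and 2.48, 2.08 and 2.42 in nhx6-2 (−0.45 ± 0.13, adjusted p = 0.271). For the median member the standard error of a difference was 0.11 units. The arrays did not overlap for 25 members in nhx5-2 (14.7%, background 13.6%) and for 16 in nhx6-2 (9.41%, background 14%).

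GME in nhx6-2 was not called on the deposited values but was under other handling of the arrays. Its difference from wild type was −0.33 ± 0.10 (limma adjusted p = 0.325). Limma gave −0.33 with an adjusted p of 0.0116 after all arrays were scaled to the same SD. It gave −0.33 with 0.00577 when both low-SD arrays were left out. GME was the only member called in each of these settings (0.588%), a share below the 0.849% and 1.74% of all probe sets. When any single array of either genotype was left out, the adjusted p lay between 0.459 and 0.835.

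The rule had used only the mean of both double knockouts, so their difference from each other could be tested. The median member was lower in nhx5-1/nhx6-1 by 0.21 units (−0.212), and 161 of 170 differences were below 0. Limma called 2 members, both lower in nhx5-1/nhx6-1 (1.18% of members), against 0.378% of all probe sets in either direction and 0.255% lower. GAPC2 had a mean of 3.88 in nhx5-1/nhx6-1 and 4.42 in nhx5-2/nhx6-2, a difference of −0.54 ± 0.10 (adjusted p = 0.0389). AT1G21065 read 2.38, 2.47 and 2.08 in nhx5-1/nhx6-1 and 2.97, 2.79 and 3.12 in nhx5-2/nhx6-2, a difference of −0.65 ± 0.12 (adjusted p = 0.0449). Its wild type values of 2.60, 2.88 and 2.60 lay between, overlapping nhx5-2/nhx6-2. Each call held in only 1 of the 6 fits that left out a single double knockout array, the fit without nhx5-1/nhx6-1 replicate 2 (largest adjusted p without another array 0.204 for GAPC2 and 0.199 for AT1G21065). With arrays scaled to the same SD the adjusted p was 0.363 for GAPC2 and 0.0196 for AT1G21065.

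The arrays of the double knockouts did not overlap for 85 members (50%), against a background of 17.4%. The median difference depended on the scaling: it was −0.05 with arrays scaled to the same SD, −0.14 without both arrays of low SD, and −0.00 after quantile normalization. The calls were then 3, 4 and 3 members, all lower in nhx5-1/nhx6-1, against 1.27%, 1.72% and 1.67% of all probe sets. The thioredoxin gene ATHM2, at −0.42 and an adjusted p of 0.0648 as deposited, was called after quantile normalization (0.0373) and without the 2 low-SD arrays (0.0406). AT2G04039 (−0.39) was called after scaling (0.0258) and without those 2 arrays (0.0471). The 3′ minus 5′ signal was also higher in nhx5-1/nhx6-1 than in nhx5-2/nhx6-2 on all 3 arrays, and with it as a covariate no member was called and 0.0176% of all probe sets were. In that fit the median was −0.20, GAPC2 had −0.45 (limma adjusted p = 0.592) and AT1G21065 −0.95 (adjusted p = 0.201). The signal did not overlap between nhx5-2/nhx6-2 (1.75 to 2.14) and nhx5-1/nhx6-1 (2.27 to 2.40). The fit therefore cannot separate it from genotype.

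**Figure D4:**
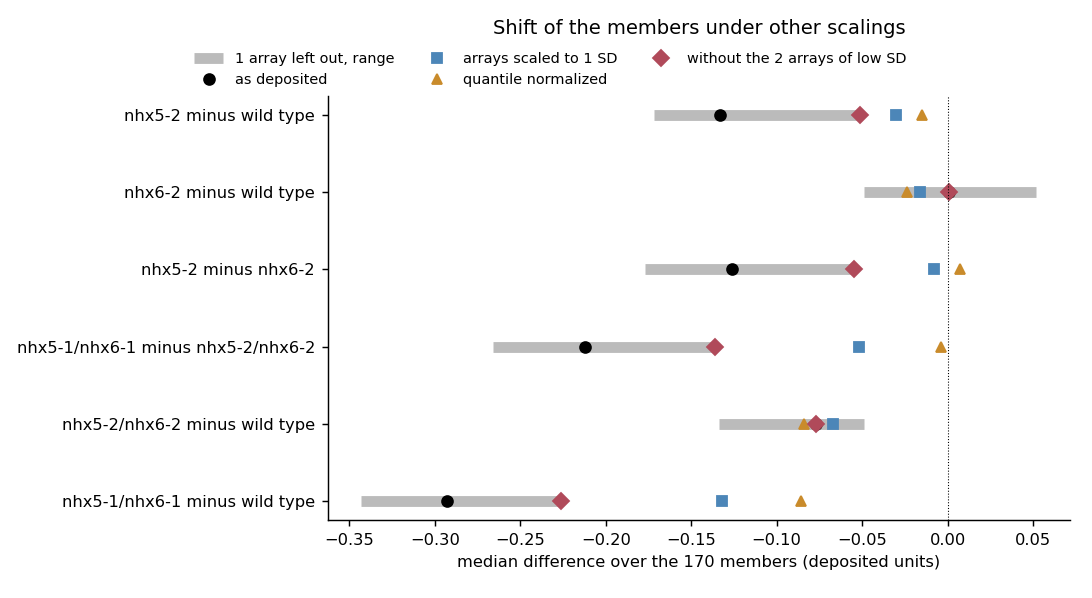
Median difference over the 170 members in each comparison, in deposited units: as deposited (circle), arrays scaled to the same SD (square), quantile normalized (triangle), without the 2 arrays of low SD (diamond), and the range over fits that left out 1 array (grey bar). For the difference between the double knockouts the median moves from −0.21 as deposited to −0.00 after quantile normalization. For nhx5-2/nhx6-2 against wild type it lies between −0.13 and −0.05 in the settings drawn, which all use the same 170 members.

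The differences of the double knockouts from wild type had been limited by the rule and are given as a description. In nhx5-2/nhx6-2 the median member lay at −0.08, with 99 of 170 below 0, and 24 members (14.1%) were past the threshold, 6 higher and 18 lower. Of all probe sets 9.81% were, 4.27% higher and 5.54% lower. In nhx5-1/nhx6-1 the median lay at −0.29, with 152 below 0, and 57 (33.5%) were past it, 1 higher and 56 lower. Of all probe sets 12% were, 5.13% higher and 6.9% lower. The arrays did not overlap with wild type for 52.4% of members in nhx5-2/nhx6-2 (background 34%) and for 55.3% in nhx5-1/nhx6-1 (background 26.3%). The counts depended on scaling: with arrays scaled to the same SD nhx5-1/nhx6-1 had 6 higher and 30 lower, after quantile normalization 12 and 32, and 31 and 32 of the 57 remained, each with the same sign. In nhx5-2/nhx6-2 the same settings gave 10 higher and 27 lower, and 20 and 38. Of the calls, 3 of 24 and 30 of 57 held without each of the 6 arrays compared. With genes ranked by their mean over all 15 arrays instead of the wild type arrays, 171 were kept. Their median lay at −0.01 in nhx5-2/nhx6-2, with 88 below 0, and 11 were called higher and 13 lower. In nhx5-1/nhx6-1 it lay at −0.27, with 144 below 0, and 2 were called higher and 48 lower.

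The members furthest above wild type among those past the threshold in nhx5-2/nhx6-2 were HIRD11 (0.56 ± 0.12), AT5G39570 (0.52 ± 0.08), DI19 (0.50 ± 0.12), GSTL3 (0.44 ± 0.10) and APA1 (0.44 ± 0.11), with NdhS (0.34 ± 0.07) as the only other. AT5G39570 read 2.58, 2.63 and 2.63 in wild type, 3.21, 2.99 and 3.19 in nhx5-2/nhx6-2 and 3.00, 3.03 and 2.79 in nhx5-1/nhx6-1, and it was the only member past the threshold and higher in nhx5-1/nhx6-1 (0.33 ± 0.08). The single knockouts read 2.45 to 2.83 and overlapped wild type. Furthest below wild type in nhx5-2/nhx6-2 were AT2G37660 (−0.47 ± 0.14), AT5G52650 (−0.47 ± 0.09), LIL3:1 (−0.46 ± 0.12), SAMDC (−0.46 ± 0.13) and AT4G17390 (−0.44 ± 0.11). In nhx5-1/nhx6-1 they were AT5G08050 (−0.65 ± 0.12), AT3G13120 (−0.61 ± 0.13), AT3G07110 (−0.61 ± 0.11), CaS (−0.56 ± 0.12) and AT5G19760 (−0.54 ± 0.10). AT5G19760 read 3.53, 3.36 and 3.52 in wild type, 3.48, 3.32 and 3.38 in nhx5-2/nhx6-2 and 2.97, 3.02 and 2.79 in nhx5-1/nhx6-1, so of the double knockouts only nhx5-1/nhx6-1 lay below all wild type arrays.

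Both double knockouts passed the threshold for 19 members, 18 of them lower and AT5G39570 higher in both. These comparisons share their wild type arrays, and the rule had joined them. The share of all probe sets past the threshold in both was not computed, so the count of 19 is a description only. Named among the 18 were SAMDC (−0.46 and −0.50), CaS (−0.43 and −0.56) and LIL3:1 (−0.46 and −0.44), values for nhx5-2/nhx6-2 first. AT1G60000 had the smallest standard error of the 19: it read 2.80, 2.67 and 2.74 in wild type, 2.32, 2.36 and 2.38 in nhx5-2/nhx6-2 and 2.41, 2.16 and 2.22 in nhx5-1/nhx6-1, differences of −0.38 ± 0.07 and −0.47 ± 0.07. Its single knockout values, 2.43 to 2.64 in nhx5-2 and 2.58 to 2.72 in nhx6-2, lay above those of both double knockouts.

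**Figure D5:**
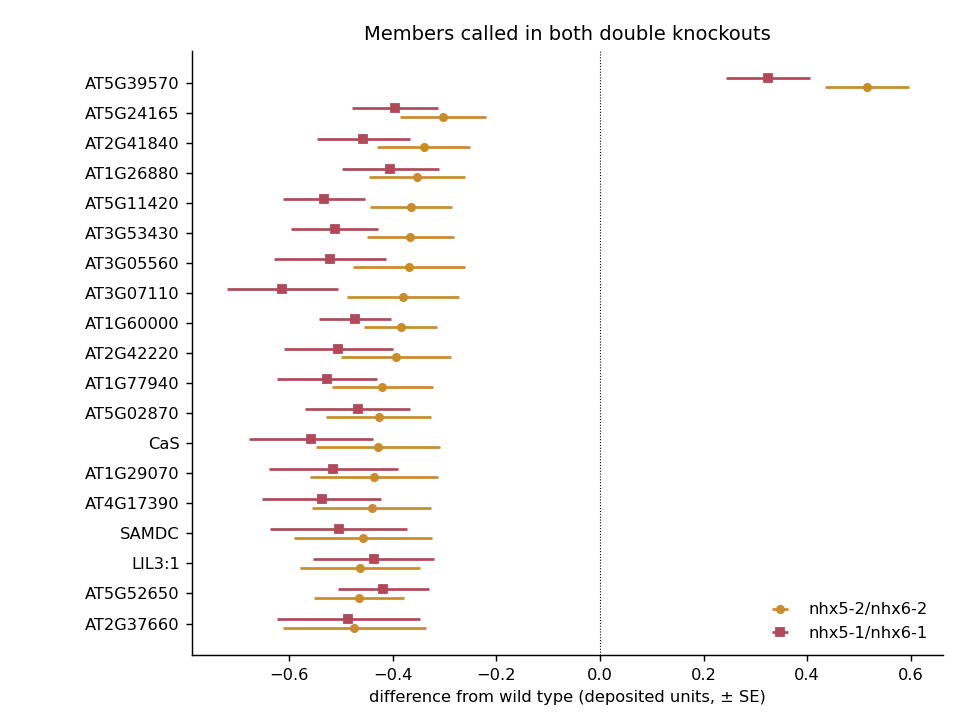
Difference from wild type, in deposited units with its standard error, of the 19 members past the threshold in both double knockouts (circles, nhx5-2/nhx6-2; squares, nhx5-1/nhx6-1; 3 arrays per genotype). All but AT5G39570 lie below 0, from −0.30 for AT5G24165 in nhx5-2/nhx6-2 to −0.61 for AT3G07110 in nhx5-1/nhx6-1.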

How the data were processed

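The authors deposited a score per probe set and array, centred near 0 on each array. The sources used here do not state its background correction, summarization, normalization or log base, and the score was used untransformed, although the plan allowed for log2 or linear values. RNA was isolated on Qiagen columns and 6 µg was labelled, per the labels' protocols. Probe sets were named from the platform annotation and the TAIR10.1 gene table, and 64 control probe sets served only for quality. Spike-in concentrations were assumed from the nominal values of the array maker. Nuclear genes had 1 gene on their probe set. No member had a second probe set.

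For each of 22746 probe sets, limma 3.58.1 in R 4.3.3 fitted 1 mean per genotype to all 15 arrays (lmFit, eBayes), with Benjamini-Hochberg adjustment over the whole table and a threshold of 0.05. Differences carry the model's standard errors. Each genotype had 3 arrays, a number that limits precision; the smallest p of an exact test at that size is 0.1. The fit was tested on simulated data.

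The members and lists were chosen with earlier results of these data known. The rule for named genes took the 15 brightest members, the 3 brightest of each functional list, up to 5 past the threshold each way in a comparison, the 5 smallest and 5 largest ranges, the genes beside each threshold, and the 5 largest left out each way. Other named members, the smallest p values, the lists' final membership and the bands of brightness were chosen after the values were seen. Planned lists that rest on product names could not be filled, since the tables give none for 126 members. No sequence is shown.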

Additional observations from a re-analysis of the deposited data

Results flagged for a closer look

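Of the members, 2 (1.18%) differed between the double knockouts by the test of that difference itself, against 0.378% of all probe sets. GAPC2, for a cytosolic glycolytic dehydrogenase, was lower in nhx5-1/nhx6-1 than in nhx5-2/nhx6-2 (difference −0.54 units), with all 3 arrays of the first below all 3 of the second. AT1G21065, given no function here, was lower in nhx5-1/nhx6-1 too (difference −0.65 units), with the same separation. The arrays of the double knockouts did not overlap for 50% of members and 17.4% of all probe sets. Over the other settings, including fits without 1 array, the GAPC2 call held in 8 of 22 and the AT1G21065 call in 11 of 21. These counts include settings that changed only the list of members and kept the same fit, so a call there could not change. Refitted, GAPC2 was called only with equal medians of all probe sets, dim probe sets filtered out, or nhx5-1/nhx6-1 replicate 2 left out. AT1G21065 was called in both latter refits, after quantile normalization, with equal medians of the members, and with scaling or without the low-SD arrays. Against wild type neither GAPC2 nor AT1G21065 had a called difference of its own in either double knockout.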

How the results depend on the processing

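Values here are the percentage of members called by limma, which was 0 in the 3 comparisons of single knockouts, 1.18 between the double knockouts, 14.1 for nhx5-2/nhx6-2 against wild type and 33.5 for nhx5-1/nhx6-1 against wild type. The percentage of all probe sets tested follows as "background", and in the deposited values was 0.29 for nhx6-2 against wild type, 0.378 between the double knockouts, 9.81 for nhx5-2/nhx6-2 and 12 for nhx5-1/nhx6-1. The comparisons of nhx5-2 with wild type and with nhx6-2 stayed at 0 in all 16 alternatives and 6 fits without a single array. Among the alternatives, taking the lowest probe set per gene gave the same members, and the list of 100 genes held only some of them. Both used the same fit, so for these comparisons they could give only 0. For nhx6-2 against wild type it was 0.588 after quantile normalization, after scaling to the same SD (with or without both arrays of low SD), without both arrays of low SD and with only the genotypes compared (background 0.198 to 1.84), and 1 when no gene was left out of the list. Between the double knockouts it was 0.588 with arrays shifted to the same median of all probe sets or of the members (background 0.317 and 14.3), 3.53 after a filter on dim probe sets (1.49), 2.35 without both arrays of low SD (1.72, or 1.98 if scaled), and 0 with the replicate block, the 3′ minus 5′ covariate, only the genotypes compared or a variance trend (0.0176 to 0.259). For nhx5-2/nhx6-2 it was 8.82 with equal medians (background 8.09), 34.1 after quantile normalization (13.4), 21.8 after scaling (12.1), 7.65 with the covariate (6.91), 28.8 without both arrays of low SD (17.2) and 25.9 if also scaled (17.6), 37.6 with only the genotypes compared (19.3), 25.5 with no gene left out (9.81) and 8.24 with the trend (9.29). For nhx5-1/nhx6-1 it was 21.2 after scaling (background 14.4), 0 with the covariate (0.106), 19.4 with only the genotypes compared (5.05) and 20 with equal medians of the members (25). With the covariate the members' median was −0.27 and 152 were below 0, against −0.29 and 152 in the deposited values. The 3′ minus 5′ signal of nhx5-1/nhx6-1 (2.27 to 2.40) did not overlap that of wild type (1.79 to 1.97). The fit therefore cannot separate that signal from genotype. Leaving out 1 array gave 0 to 5.88 between the double knockouts, 2.35 (without wild type replicate 3, background 5.12) to 15.3 (9.19) for nhx5-2/nhx6-2, and 18.2 (without wild type replicate 1 or 3, background 6.5 and 6.59) to 37.1 (10.2) for nhx5-1/nhx6-1. The members' median changed sign for nhx5-2 against nhx6-2 after quantile normalization (0.0067) and between the double knockouts with equal medians of the members (0.0017). The setting with equal medians of the members and the scaled one without 2 arrays were chosen after seeing the data. The cause of these changes was not tested.

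Of 30 same-numbered pairs of arrays, 6 had deviations from the genotype means that correlated above 0.1 (r from −0.36 to 0.35, median −0.05). Differently numbered pairs were not compared, so whether replicate numbers pair some of the samples was not tested. With the replicate block 0 members were called in the comparisons of single knockouts and between the double knockouts (background 0.0132% to 0.207%). Against wild type, 18 members (10.6%, background 9.03%) were called in nhx5-2/nhx6-2 and 49 (28.8%, background 11.1%) in nhx5-1/nhx6-1. Replicates are biological per the labels, without word on separate plants or pools. Between the spike-ins bioD (3.33 units) and cre (4.83) the score differed by 0.75 ± 0.05 units per doubling (SD over 15 arrays), against 0.68 over all spike-ins, and no spike-in covers the members brighter than cre.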
